A study of Homo sapiens with 16 samples.

Results

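Tight junction genes were followed in 16HBE cells, a line of human bronchial epithelium immortalised with SV40 large T antigen. The 9 genes were CLDN1, CLDN3, CLDN4, CLDN7 and CLDN12 (claudins), OCLN (occludin), MARVELD2 (tricellulin), F11R (junctional adhesion molecule A) and TJP1 (the scaffold ZO-1). They were taken by name from the 42665 gene names of a one-colour Agilent microarray. Cells carried either wild-type MET, the receptor of hepatocyte growth factor (HGF), or MET without exon 14 after Cas9 editing of its splice donor region. The edited cells, 16HBE-ex14, were 1 subclone (clone F) isolated by limiting dilution, while 16HBE-WT were the parental line, so that a difference between the genotypes cannot be told apart from a difference between this clone and the line it came from. Both were deprived of serum for 2 h and then kept for 24 h with HGF at 20 ng/mL or without it, which gave 4 conditions of 4 arrays each: 16HBE-WT and 16HBE-ex14 without HGF, and 16HBE-WT+HGF and 16HBE-ex14+HGF with it. The 4 replicates of a condition were cultures separated by a week, but the labels do not tie an array to a week.

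Tight junctions close the space between neighbouring epithelial cells near their apical side. Claudins form the strands, and their mix decides whether the paracellular path is sealed or lets ions through. Occludin and tricellulin belong to the same family of strand-associated membrane proteins, tricellulin sitting where 3 cells meet, and junctional adhesion molecule A is an adhesion protein of the immunoglobulin superfamily that helps to place polarity proteins. ZO-1 binds the tails of these proteins and joins them to actin. HGF is also known as scatter factor, which makes epithelial colonies come apart, and Snail and ZEB repressors can shut off claudin and occludin genes through E-box motifs.

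All values below are log2 signals relative to the 75th percentile of the same array, which ranged from 139.5 to 262.8 intensity units. It was higher in 16HBE-ex14 (median 232.2) and 16HBE-ex14+HGF (214.9) than in 16HBE-WT (171.5) and 16HBE-WT+HGF (177.5). Between 49.0% and 60.3% of probes were well above background on an array. Calls required an adjusted p below 0.05 (limma, Benjamini-Hochberg over 34604 tested probes) and a change above 1.5-fold, 0.58 on the log2 scale. Scaling to the array median raised the share of higher probes among those called between the genotypes without HGF from 48.0% to 71.8%, and with HGF from 49.0% to 66.0%, and lowered it for HGF in 16HBE-ex14 from 52.2% to 24.1%. These 3 shares were 63.4%, 54.3% and 42.2% with scaling to the spike-in probes, and 60.04%, 58.8% and 52.8% with normexp background correction. The epithelial markers EPCAM, CDH1, KRT8, KRT18 and KRT19 were well above background on all 16 arrays. KRT19 was lower in 16HBE-ex14 by -0.58 and CDH1 was lower with HGF in 16HBE-ex14 by -0.58 (adjusted p = 0.000427 and 0.0347 by limma), both under the fold limit. Of 14 markers of fibroblasts, endothelium and leukocytes, 6 were above background on every array (COL1A1, CDH5, VWF, PTPRC, CD14 and CD3E) and 7 on at most 1; COL1A2, COL3A1, DCN, PECAM1 and TEK were above it on none. The signals of these 14 probes were summed on the linear scale and then put on the log2 scale. The log2 of the sum was 0.71 to 1.23 in 16HBE-WT and 0.46 to 0.95 in 16HBE-ex14. LUM, which fibroblasts make, was above background on the 8 arrays of wild-type cells and on none of 16HBE-ex14 cells. CD3E, a T cell marker, was lower by -0.98 in 16HBE-ex14 (adjusted p = 0.0242 by limma). The part of such markers in the results was not tested. The MET probe differed by 0.14 between the untreated genotypes (adjusted p = 0.445 by limma), and whether it lies in the skipped exon was not determined, so it does not check the edit.

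The array held 14 probes of the 9 genes, of which 13 were well above background on all 16 arrays. The second CLDN4 probe was above background on 2 arrays and was not tested. CLDN1, CLDN3, CLDN7 and TJP1 had 1 probe each, and the others had 2. Each gene is given by its brighter probe, and signals of different probes are not set against each other, since probes differ in their response. OCLN has a pseudogene (OCLNP1 in RefSeq), and whether its probes also read that copy was not determined.

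The promoters of the genes that passed the test in a comparison, CLDN1, CLDN3 and TJP1, are shown with that of CLDN7, which carried the most E-boxes. CLDN7 and TJP1 had several windows, and for each the window with an E-box is printed. Which start these cells use was not determined. Each line is the 250 bases before a transcription start in RefSeq (GRCh38.p14), 5′ to 3′ on the gene's own strand, and capitals mark the E-box CAGGTG or its reverse complement CACCTG.
CLDN1, chr3:190322447-190322696, minus strand: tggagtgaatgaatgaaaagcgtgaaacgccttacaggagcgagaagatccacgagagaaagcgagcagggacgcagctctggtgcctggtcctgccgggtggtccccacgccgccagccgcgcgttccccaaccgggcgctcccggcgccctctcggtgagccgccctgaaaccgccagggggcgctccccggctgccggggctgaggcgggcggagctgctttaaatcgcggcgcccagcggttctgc
CLDN3, chr7:73770271-73770520, minus strand: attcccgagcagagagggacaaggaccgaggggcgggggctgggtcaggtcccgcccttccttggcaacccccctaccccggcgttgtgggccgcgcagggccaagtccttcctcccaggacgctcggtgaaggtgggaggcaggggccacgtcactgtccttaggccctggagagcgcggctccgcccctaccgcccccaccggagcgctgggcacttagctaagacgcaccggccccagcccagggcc
CLDN7, chr17:7262479-7262728, minus strand: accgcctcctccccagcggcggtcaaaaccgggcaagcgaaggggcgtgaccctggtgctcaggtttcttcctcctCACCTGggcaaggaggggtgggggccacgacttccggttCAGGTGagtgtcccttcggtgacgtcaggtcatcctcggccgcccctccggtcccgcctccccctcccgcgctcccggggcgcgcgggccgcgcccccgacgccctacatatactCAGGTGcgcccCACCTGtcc
TJP1, chr15:29969050-29969299, minus strand: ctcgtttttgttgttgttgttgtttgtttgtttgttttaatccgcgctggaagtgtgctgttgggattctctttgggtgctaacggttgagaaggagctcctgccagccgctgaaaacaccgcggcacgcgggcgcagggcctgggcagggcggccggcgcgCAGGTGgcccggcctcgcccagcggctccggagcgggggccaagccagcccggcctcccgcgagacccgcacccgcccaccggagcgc
CAGGTG or CACCTG stood in 17.5% of the 35116 RefSeq promoters of this length. Promoters were found for 8 of the 9 genes, and 3 genes held an E-box in at least 1 window. These genes had 1 to 4 windows each, so a count of genes cannot be set against a share of single promoters. CLDN7 had 4 of them, at -174, -135, -20 and -9 from the start, in 1 of its 2 windows. OCLN had 1 in each of its 2 windows, and TJP1 had 1, at -88, in 1 of its 4 windows. CLDN1 and CLDN3 had none. The AP-1 motif TGANTCA, found in 6.57% of promoters, occurred in CLDN4 alone, at -242 and -161, and the Grainyhead motif AACCNGTT (1.49% of promoters; both strands searched) in none of the 8 genes with a promoter. These are letter matches in short windows and no measure of binding.

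The probes behind the 3 genes are shown by the last 30 of their 60 bases. Each signal comes from the whole probe and reports a single stretch of the transcript and no splice form. Capitals mark AATAAA, the signal for cleavage and polyadenylation, which stood in the CLDN1 and CLDN3 probes.
CLDN1 probe: atgggaagaAATAAAagcctacgtgttggt
CLDN3 probe: tatttttcAATAAAagcctttcgttttgca
TJP1 probe: ctactgtaatttgtgatacaatgctgtgcc
On hg19, the build of the array annotation, the CLDN1 probe lies at chr3:190024001-190024060, the CLDN3 probe at chr7:73183327-73183386 and the TJP1 probe at chr15:29992527-29992586, all on the minus strand. Transcripts that end before these positions are not counted.

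The first question was what HGF did to these genes in cells with the skipped exon. CLDN1, which encodes a sealing claudin of the epithelial barrier, fell, and it was the only 1 of the 9 genes to pass the test. Its log2 signals were 1.98, 2.22, 1.89 and 2.36 in 16HBE-ex14 and 1.40, 1.28, 1.49 and 1.44 in 16HBE-ex14+HGF. Every stimulated array lay below every untreated one. The mean moved from 2.11 ± 0.21 to 1.40 ± 0.09 (SD, n = 4), a change of -0.71 (SE 0.13, 95% interval -0.97 to -0.44), or 1.63-fold lower (adjusted p = 0.00779 by limma). In this comparison 2.00% of all tested probes were called and 0.957% were called lower. The change was -0.76 on the first slide and -0.66 on the second, and with slide as a block the adjusted p by limma was 0.00503. Fitted on the 8 arrays compared alone, without the wild-type arrays, the same change had an adjusted p of 0.0529 by limma, just missing the threshold.

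In 16HBE-WT cells CLDN1 measured 2.09, 1.85, 2.19 and 1.99 without HGF and 1.53, 1.84, 1.70 and 2.00 with it. The arrays of both conditions overlapped. The difference was -0.26 (interval -0.53 to 0.01; adjusted p = 1.00 by limma). The response in 16HBE-ex14 minus that in 16HBE-WT was -0.44 (interval -0.82 to -0.06), which had an unadjusted p of 0.0258 by limma and an adjusted p of 0.994. A different response of the genotypes was therefore not shown. The difference was tested for all probes, 0% were called, and 1599 of 34604 had an unadjusted p below 0.05. CLDN1 was the only gene of the 9 among these.

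For the other 8 genes HGF gave changes between -0.20 (TJP1) and 0.15 (CLDN7) in 16HBE-ex14 cells, with adjusted p values by limma from 0.319 to 0.912. Their 95% intervals, taken singly, ran from -0.39 at the lowest (TJP1) to 0.37 at the highest (CLDN7), so that all stayed inside the limit of 0.58. The second CLDN12 probe changed by 0.30 (interval 0.01 to 0.59; adjusted p = 0.334 by limma), which reached the limit. CLDN3 measured 3.39, 3.55, 3.44 and 3.38 without HGF and 3.34, 3.32, 3.12 and 3.23 with it, values that did not overlap, but the difference of -0.19 did not pass (adjusted p = 0.319 by limma). The median change of the 9 genes was -0.08, beside 0.05 for all tested probes. Of the 9 values 7 were below 0, or 9 with scaling to the array median, and 6 with second probes where tested.

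In 16HBE-WT cells none of the 9 genes was called with HGF, where 0% of all probes were called. Of 34604 probes 1694 had an unadjusted p below 0.05 by limma, and the brighter probe of no gene of the 9 was among them. The second MARVELD2 probe was, at -0.18 (interval -0.34 to -0.02; adjusted p = 0.971 by limma). The changes ran from -0.26 (CLDN1) to 0.14 (CLDN7), and the intervals from -0.53 to 0.36, again inside the limit. The 2 HGF comparisons share no array.

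**Figure D1:**
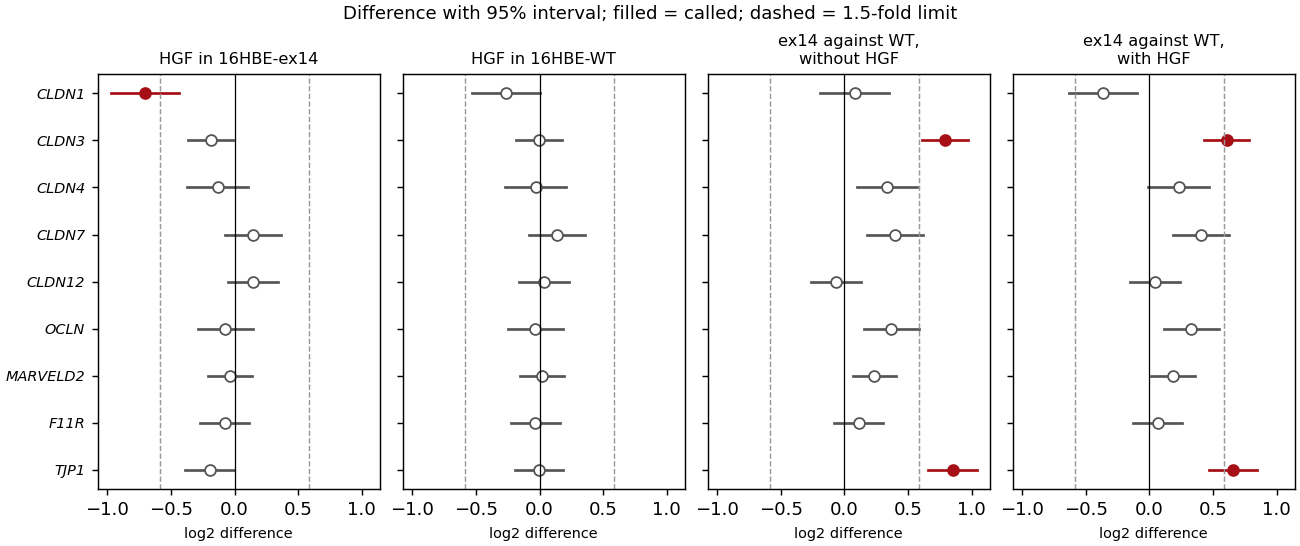
Log2 difference (x axis) with its 95% interval for the 9 genes (y axis) in 4 comparisons; filled red points were called, and dashed lines mark the 1.5-fold limit. With HGF only CLDN1 is filled, in 16HBE-ex14, and between the genotypes CLDN3 and TJP1 are filled with and without HGF.

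The second question was how the genotypes differed. CLDN3 and TJP1 were higher in 16HBE-ex14 than in 16HBE-WT cells without HGF, 2 of the 9 genes, where 9.40% of all probes were called and 4.51% were called higher. CLDN3, a sealing claudin, measured 2.55, 2.77, 2.70 and 2.57 in 16HBE-WT against 3.39, 3.55, 3.44 and 3.38 in 16HBE-ex14. The conditions were well apart. The difference was 0.79 (SE 0.08, interval 0.61 to 0.97), or 1.73-fold (adjusted p = 2.07e-05 by limma).

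TJP1, the gene of ZO-1, differed most among the 9. Its signals were 2.65, 2.48, 2.75 and 2.68 in 16HBE-WT and 3.31, 3.59, 3.48 and 3.58 in 16HBE-ex14, with no overlap. The difference was 0.85 (SE 0.09, interval 0.66 to 1.04), or 1.80-fold (adjusted p = 1.95e-05 by limma). Within the slides it was 0.89 and 0.81, and for CLDN3 0.80 and 0.78. With slide as a block, the adjusted p by limma was 1.54e-05 for CLDN3 and 1.80e-05 for TJP1.

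CLDN7 and OCLN lay between. CLDN7 measured 4.43, 4.61, 4.73 and 4.53 in 16HBE-WT and 4.75, 4.95, 5.21 and 4.97 in 16HBE-ex14, a difference of 0.40 (adjusted p = 0.0154 by limma). OCLN measured 0.73, 0.71, 0.61 and 0.89 against 0.97, 1.06, 1.20 and 1.19, a difference of 0.37 (adjusted p = 0.0196 by limma). In both genes every 16HBE-ex14 array was above every 16HBE-WT array, but the difference was under the fold limit. Here and elsewhere such separation is only a description, since the share of all probes that show it is not given. With the adjusted p alone 4 of the 9 genes passed and all 4 were higher, where 9.63% of all probes were higher by that rule. The second OCLN probe differed by 0.27 and did not pass (adjusted p = 0.125 by limma).

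The remaining genes did not pass. CLDN4, a claudin of tight epithelia, differed by 0.33 (adjusted p = 0.0508 by limma), with 7.48, 7.41, 7.45 and 7.65 in 16HBE-WT and 7.64, 8.02, 7.78 and 7.88 in 16HBE-ex14. MARVELD2 differed by 0.24 (adjusted p = 0.0559 by limma), and its second probe by -0.06, so its direction depended on the probe. F11R differed by 0.11 and its second probe by -0.03, CLDN12 by -0.07 and its second probe by 0.08, and CLDN1 by 0.08. Over the 9 genes the median was 0.33, beside -0.02 for all probes, and 8 of 9 values were above 0, or 8 to 9 under the other scalings. With second probes, where tested, 7 of 9 were above 0.

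With HGF in both genotypes, CLDN3 and TJP1 were again the genes called, both higher, where 10.8% of probes were called and 5.32% were called higher. CLDN3 measured 2.57, 2.62, 2.66 and 2.73 in 16HBE-WT+HGF and 3.34, 3.32, 3.12 and 3.23 in 16HBE-ex14+HGF. All arrays of the 2 conditions were apart. The difference was 0.61 (SE 0.08, interval 0.43 to 0.79), or 1.52-fold (adjusted p = 0.000154 by limma). That is just past the fold limit, and it fell to 0.58, under the limit, without replicate 1 of 16HBE-WT+HGF or without replicate 1 or 2 of 16HBE-ex14+HGF, and to 0.56 with quantile normalization. It was 0.73 on the first slide and 0.48 on the second.

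For TJP1 the signals with HGF were 2.69, 2.67, 2.50 and 2.68 in 16HBE-WT and 3.35, 3.34, 3.27 and 3.23 in 16HBE-ex14. They did not overlap. The difference was 0.66 (SE 0.09, interval 0.47 to 0.85), or 1.58-fold (adjusted p = 0.000135 by limma), and 0.66 on each slide. CLDN7 differed by 0.41 (adjusted p = 0.0121 by limma) and OCLN by 0.33 (adjusted p = 0.0319), which with CLDN3 and TJP1 made 4 higher genes by the adjusted p alone, where 10.4% of probes were higher. By the brighter probes, CLDN1 was the gene of the 9 below 0, at -0.36 with conditions that did not overlap. It did not pass (adjusted p = 0.0551 by limma). F11R differed by 0.07 and its second probe by -0.06, so its direction depended on the probe. The second OCLN probe differed by 0.34 and passed by the adjusted p alone (adjusted p = 0.047 by limma). The median of the 9 was 0.23, beside -0.00 for all probes, and 7 or 8 of the 9 were above 0, depending on the scaling.

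By condition, then, the order of the means differed from gene to gene. CLDN1 ran from 1.40 ± 0.09 in 16HBE-ex14+HGF through 1.77 ± 0.20 in 16HBE-WT+HGF and 2.03 ± 0.15 in 16HBE-WT to 2.11 ± 0.21 in 16HBE-ex14 (SD, n = 4), and of these neighbours only the lowest pair had arrays that did not overlap. CLDN3 means were 2.65 ± 0.11 without and 2.64 ± 0.07 with HGF in wild-type cells, and 3.44 ± 0.08 without and 3.25 ± 0.10 with HGF in 16HBE-ex14 cells. TJP1 means were 2.64 ± 0.12, 2.64 ± 0.09, 3.49 ± 0.13 and 3.29 ± 0.06 in the same order. In both genes the 2 wild-type means were closer than the spread between arrays.

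The genes whose pattern over the 16 arrays was most like that of the called genes were sought among 16339 named genes, as a description. For CLDN1 these were TEAD3 (Pearson r = 0.96), WWC1 (0.96) and HOXC13-AS (0.96). For CLDN3 they were EPHA5-AS1 (0.98), MAPK11 (0.97) and PDE4A (0.97), and for TJP1 RADIL, MYOF and ANK3 (0.99 each). The points share the 4 conditions, and for CLDN3 and TJP1 the arrays form 2 groups by genotype, so a high r says little more than that a gene separates the genotypes.

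Genes beside the called genes were read as well, 5 on each side by hg19 position. Around TJP1 the median genotype difference of the 10 neighbours was -0.25 without HGF and -0.25 with it, and none was called higher and 1 lower with HGF (ENST00000557911, -0.63). Around CLDN1 the medians were -0.01 and 0.11, with no neighbour called without HGF and 2 lower with it, P3H2 (-1.17) and LPP-AS2 (-0.73). Around CLDN3 the medians were 0.16 and 0.21. There 1 neighbour was called higher without HGF, DNAJC30 (0.77), and 3 with it, DNAJC30 (0.69), STX1A (1.09) and METTL27 (0.69). The neighbours were named after their values were seen. CLDN4, itself among the neighbours of CLDN3, did not pass in either comparison. Neither MARVELD2 nor its neighbour OCLN was called in either comparison.

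Of 19 further claudins 18 were on the array and 10 were tested; CLDN5, CLDN8, CLDN10, CLDN14, CLDN17, CLDN18, CLDN20 and CLDN25 were above background on at most 1 array. CLDN11, the claudin of myelin and of the Sertoli cell barrier, was called in 3 comparisons. In wild-type cells it measured 1.45, 1.14, 1.54 and 1.37 without HGF and 0.74, 0.87, 0.91 and 1.21 with it. In 16HBE-ex14 cells it measured 2.75, 3.05, 2.56 and 2.90 without HGF and 1.89, 1.57, 1.52 and 1.80 with it, above all wild-type arrays in the first case and overlapping the untreated ones in the second. HGF lowered it in 16HBE-ex14 by -1.12 (SE 0.14), and it was higher in 16HBE-ex14 by 1.44 (SE 0.14) without HGF and by 0.76 with it (adjusted p = 0.0013, 8.66e-06 and 0.00119 by limma). In 16HBE-WT its change with HGF was -0.44 and did not pass (adjusted p = 0.871 by limma), and the difference of the responses, -0.68, did not pass (adjusted p = 0.636).

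CLDN2, which forms a channel for cations and water, went the other way between the genotypes. Its signals in 16HBE-WT and 16HBE-ex14 were -2.11, -2.19, -1.80 and -2.26 against -3.17, -2.87, -2.79 and -2.86, without overlap. It was lower by -0.84 without HGF and by -0.97 with HGF (adjusted p = 0.00337 and 0.00104 by limma), though only by -0.42 and -0.48 with another background correction (normexp), under the limit. CLDN15 was higher with HGF by 0.65 (adjusted p = 0.0323 by limma), a call that was lost in 3 other settings and without each of 4 single arrays in turn (replicates 2 and 3 of 16HBE-WT+HGF and replicates 3 and 4 of 16HBE-ex14+HGF), with a lowest value of 0.04. In all, 1 of the 10 was called with HGF in 16HBE-ex14, 2 between the genotypes without HGF and 3 with it, none with HGF in 16HBE-WT, where 2.00%, 9.40%, 10.8% and 0% of all probes were called. The medians were -0.12, 0.14, -0.09 and 0.03.

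**Figure D2:**
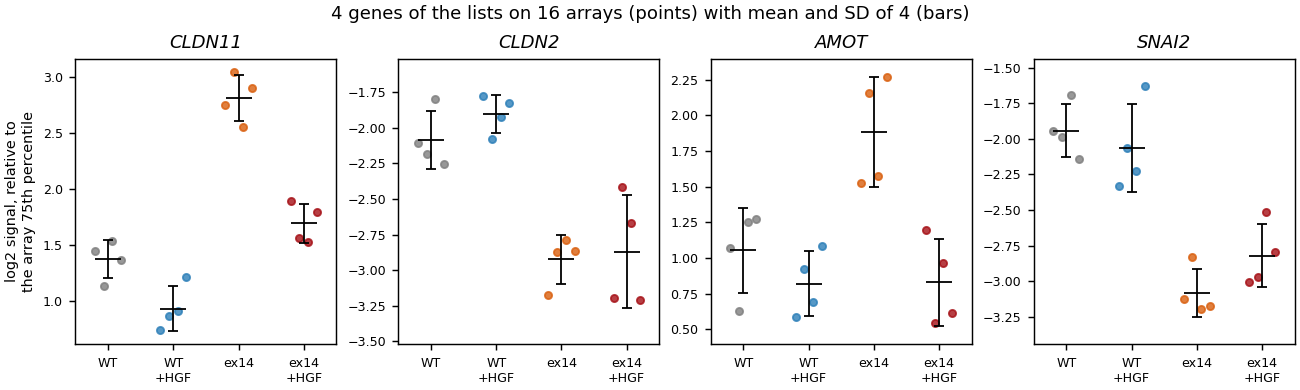
Log2 signal relative to the array's 75th percentile (y axis; each panel has its own range) of CLDN11, CLDN2, AMOT and SNAI2 in the 4 conditions (x axis); points are arrays and bars the mean ± SD of 4. CLDN11 is highest in 16HBE-ex14 (2.56 to 3.05), and CLDN2 and SNAI2 are lower on every array of 16HBE-ex14 cells than on any of 16HBE-WT cells.

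Among 12 other membrane proteins of the junction, 9 of them tested, no gene was called with HGF in either genotype. Of all probes, 2.00% were called with HGF in 16HBE-ex14 and 0% in 16HBE-WT. BVES, a membrane protein with a role in cell adhesion, was lower by -0.75 in untreated 16HBE-ex14 cells (adjusted p = 0.0184 by limma), a call lost under median scaling, under spike-in scaling, with normexp, and without replicate 1 of 16HBE-WT or replicate 4 of 16HBE-ex14. None was called between the stimulated genotypes. Of all probes, 9.40% were called between the untreated genotypes and 10.8% between the stimulated ones.

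Plaque and polarity proteins, which lie under the strands, numbered 25 on the array and all were tested. HGF in 16HBE-ex14 lowered 3 of them, where 0.957% of all probes were called lower, with a list median of -0.09. AMOT (angiomotin, a partner of polarity proteins) measured 1.53, 2.16, 1.57 and 2.27 without HGF and 1.19, 0.54, 0.96 and 0.61 with it, a change of -1.05 (adjusted p = 0.0138 by limma), and its second probe changed by -1.02 (adjusted p = 0.0131). CGN (cingulin, which binds ZO-1) and TJP3 (ZO-3, a relative of ZO-1) changed by -0.70 and -0.69 (adjusted p = 0.0309 and 0.0469 by limma).

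The call of CLDN1 was kept without each of the 8 arrays in turn, which was not so for these 3. AMOT lost its call on the 8 compared arrays alone and without replicate 2 or 4 of 16HBE-ex14 or replicate 4 of 16HBE-ex14+HGF (largest adjusted p = 0.0762 by limma). CGN lost its call without 5 of the 8 single arrays, with spike-in scaling, without the filter on dim probes and with only the compared arrays. TJP3 lost its call without 6 single arrays, in the same 3 settings, with normexp (-0.25), and with slide and row as a replicate block (adjusted p = 0.0697 by limma). No plaque gene was called with HGF in 16HBE-WT, where 0% of all probes were called.

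Between the untreated genotypes, where 9.40% of all probes were called, AMOT (0.83) and MAGI3 (0.77), a scaffold of the MAGI family, were higher and CGNL1 (paracingulin, -0.61) was lower. Between the stimulated genotypes, where 5.53% of all probes were called lower, 4 were lower: CGNL1 (-0.76), MPDZ (a scaffold with many PDZ domains, -0.74), TJP3 (-0.73) and RAB13 (a small GTPase of junction traffic, -0.68; adjusted p = 4.37e-05 by limma). All 4 calls were lost with normexp, at -0.41 for CGNL1, -0.43 for TJP3 and -0.58 for both MPDZ and RAB13, and that of CGNL1 also with scaling to the array median. The second probe of PARD6B was called lower in both comparisons (-0.73 and -0.71), its brighter probe in neither (-0.19 and -0.21), a gene named after its values were seen. CGNL1 without HGF was lost in 7 of 12 other settings, the replicate block among them (adjusted p = 0.0631 by limma), and without 7 of the 8 single arrays, and MAGI3 with normexp, without the filter on dim probes and without each of 4 single arrays in turn.

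Genes known to regulate claudins were the last list, 16 genes of which 15 were tested; ZEB1, a repressor, was above background on 2 arrays. With HGF none of the 15 was called in either genotype, where 2.00% (16HBE-ex14) and 0% (16HBE-WT) of all probes were called. SNAI2, which encodes Slug, a repressor that binds E-boxes, was lower in 16HBE-ex14: its signals were -1.95, -1.99, -1.69 and -2.14 in 16HBE-WT and -3.13, -2.83, -3.20 and -3.18 in 16HBE-ex14, apart on all arrays. The difference was -1.14 without HGF and -0.76 with it (adjusted p = 0.000211 and 0.00361 by limma), and -0.56 and -0.47 with normexp, under the limit.

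GRHL3, a Grainyhead-like factor of epithelial genes, was lower by -0.67 without HGF and by -0.85 with it (adjusted p = 0.0298 and 0.00746 by limma). GRHL1, of the same family, was lower by -0.80 with HGF (adjusted p = 0.00838 by limma). The second GRHL1 probe differed by -0.38 there and did not pass (adjusted p = 0.270 by limma), so the call rests on the brighter probe. Without HGF, the call of GRHL3 was lost under quantile, median and spike-in scaling, with normexp, without the filter on dim probes, with only the compared arrays, and without 6 of the 8 single arrays. With HGF, it was lost with normexp (-0.55). In all 2 of 15 were called without HGF and 3 with it, all lower, where 4.89% and 5.53% of all probes were called lower, with list medians of -0.07 and -0.16. The HGF and genotype comparisons of one condition share its arrays, so they are not independent of each other.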

How the data were processed

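RNA of 16 cultures was measured on Agilent arrays in 1 colour. The authors deposited for every spot a linear intensity, the processed signal of Agilent Feature Extraction 10.7.3.1, background-subtracted and not scaled across arrays. The matrix of the whole series held the same values. Signals were read in R 4.3.3 with the data.table package, converted to log2, reduced by the 75th percentile of the array over all spots without controls, freed of outlier spots (50 to 92 per array), and averaged per probe. Of 58201 probes 34604 were tested, those well above background on at least 4 of 16 arrays. limma 3.58.1 was fitted with 1 mean per condition and empirical Bayes moderation, and p-values were adjusted within each of 5 contrasts. The fit was tested on simulated data. Fold changes are differences of log2 means, and intervals are 95% and not adjusted. A gene stood for its brightest probe. The number of arrays limits the precision.

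Arrays lay on 2 slides, each with 2 rows that held 1 array of every condition. Replicate numbers follow sample order and were not used to pair arrays. The genes and lists were chosen with earlier results of these data known. Named were the 9 genes, at most 4 called genes per list and comparison, the 3 most correlated genes of each called gene, and MET. Alternatives were normexp (offset 50), quantile, median and spike-in scaling, no filter or a filter on all 16 arrays, outlier spots kept, slide or slide and row as a block, single slides, a trended and robust prior, only the compared arrays, no fold limit, the second probe, and leaving out each array. Motifs were searched in RefSeq promoters (GRCh38.p14) with Python 3.11.15 and pandas 2.3.3, and plots made with matplotlib 3.10.9. Of the 14 probes, 12 had an accession with the same symbol in RefSeq's gene list. The other experiments of the study were not analysed here. A gene of the regulator list is not reported here.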

Additional observations from a re-analysis of the deposited data

Results flagged for a closer look

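Among 36 sets of 4 arrays (9 genes in 4 conditions), 2 held an array far from the other 3, and chance marks about 1 in 20 such sets. In 16HBE-WT+HGF the TJP1 signal of replicate 3 was 2.50, while the other 3 arrays lay between 2.67 and 2.69. In 16HBE-WT the CLDN12 signal of replicate 2 was 1.06, while the others were at 0.98. Both gaps are small against the genotype difference of TJP1, and CLDN12 was called in no comparison. The calls of TJP1 between the genotypes were kept when each array was left out in turn.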

How the results depend on the processing

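HGF in 16HBE-ex14 called 1 gene of the 9 (CLDN1), and 0 on slide 1 only, on slide 2 only and with only the arrays compared; on single slides, with 2 arrays per condition, the adjusted p of CLDN1 by limma was 0.236 and 0.398 at changes of -0.76 and -0.66. Between the stimulated genotypes 2 genes were called, but 1 with quantile normalization (TJP1), 1 on slide 1 only (CLDN3), 0 on slide 2 only, and 1 to 2 when single arrays were left out. Without the fold limit 4 were called in each genotype comparison (CLDN3, CLDN7, OCLN and TJP1). No other alternative changed a count of the 9 genes, and HGF in 16HBE-WT and the difference of responses stayed at 0. Of 1098 single values under the alternatives, 1026 kept direction and side of the threshold, 10 lost a call, 4 gained one (without the fold limit), 0 called values reversed and 58 uncalled values changed sign. The 22 calls in the other lists were recomputed after they had been seen, without the fits on 1 slide: 5 were kept throughout, 8 were lost with normexp alone, 9 elsewhere, and 0 changed sign. Median scaling moved the median of all probes from 0.05 to -0.11 for HGF in 16HBE-ex14, from -0.02 to 0.12 for the untreated genotypes and from -0.00 to 0.09 for the stimulated ones. Normexp moved the genotype medians to -0.13 and -0.14, as did leaving out the filter on dim probes (-0.13 and -0.14). The number of called probes fell from 693 to 411 with normexp, 436 with spike-in scaling and 246 with only the compared arrays for HGF in 16HBE-ex14, and from 3253 to 1489 and from 3752 to 1814 between the genotypes with normexp. It was 346 to 977 for HGF in 16HBE-ex14 with 1 array left out and 0 on either slide alone, 1427 and 841 for the untreated genotypes on slides 1 and 2, and 1672 and 1566 for the stimulated ones. Without the fold limit the genotype counts were 6349 and 7128. For the difference of responses 4 probes were called with normexp and 4 with a trended and robust prior, 11 without 16HBE-ex14 replicate 3 and 1 without 16HBE-WT+HGF replicate 3, against 0. The causes were not tested. With slide and row as a replicate block the counts of the 9 genes were 1, 0, 2, 2 and 0, as without it; arrays with the same number correlated at 0.03 to 0.32 in their deviations and arrays of the same slide with other numbers at 0.04 to 0.41, so the numbers were not taken as pairs. Dim transcripts limit the reading: 8 further claudins were too dim to be tested.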
